A study of Mus musculus with 8 samples.

Results

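Stem cells of the hair follicle are told apart by 10 genes measured here: Lgr5, Lgr6, Lrig1, Cd34, Sox9, Nfatc1, Lhx2, Tbx1, Gli1 and Cdh3. They were taken by symbol as known markers of bulge, isthmus, junctional zone and hair germ cells, a rule that uses no measured value, though the set was drawn up with earlier results of these data known, and all 10 were found among the 24421 gene symbols counted and among the 13016 genes tested. Bulk RNA sequencing was done on keratinocytes, the epithelial cells of skin, from mice of the strain CBA x C57Bl/6J. The 4 control libraries were InvEE K5 Cre- HMGB1 fl/fl and the 4 knockout libraries InvEE K5 Cre+ HMGB1 fl/fl. Every library thus came from a mouse with the InvEE transgene and with both alleles of the gene for the chromatin protein HMGB1 floxed. InvEE expresses an activated MEK1 kinase from the involucrin promoter, which works in the differentiating layers, whereas K5 Cre removes the floxed sequence from basal keratinocytes, the follicle epithelium included, and from their descendants. Cre was carried by the knockouts alone, so its own effect and that of losing HMGB1 cannot be told apart. The labels number the replicates without calling each a separate animal and give no age or hair cycle stage, and p-values therefore measure the spread between these libraries.

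The hair follicle regrows in cycles from stem cells kept in separate compartments. The bulge, below the sebaceous gland, holds slowly dividing cells that are marked by CD34 and kept by the transcription factors SOX9, NFATC1, LHX2 and TBX1. The hair germ beneath it contains cells with LGR5 and P-cadherin (Cdh3) that are activated first in a new cycle, while LGR6 and LRIG1 mark cells of the isthmus and junctional zone above the bulge. LGR5 and LGR6 are receptors for R-spondins, which strengthen Wnt signals, and GLI1 is a transcription factor and target of Hedgehog signalling. Several of these genes are also transcribed outside the follicle: LRIG1, LGR6, SOX9 and P-cadherin occur in other keratinocytes, and CD34 is a surface protein of blood vessel cells, fibroblasts and mast cells.

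Each library held from 30506676 to 34229030 counts on genes, and the members had between 87 and 8518 counts in a library. Hmgb1 itself, which checks the labels, was at 565.5 to 615 CPM (counts scaled to library size, with TMM factors) in the 4 controls and at 113 to 126 CPM in the 4 knockouts. Keratinocyte markers were abundant, with 7 of them summing to 44850 to 53840 CPM in controls and 46230 to 56120 CPM in knockouts. Y-linked transcripts (4 genes) gave 6110 to 6743 counts in 3 libraries, namely control replicates 2 and 3 and knockout replicate 1, and 0 to 51 counts elsewhere.

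Promoter sequence is shown for 2 of the members that fell (Lgr6, Lrig1) and for 3 members that were low in all knockouts but 1 (Cd34, Lhx2, Tbx1). These are 5 of the 10 members. Lgr5, Sox9, Gli1 and Cdh3 had no entry by symbol in the RefSeq promoter table used here, and the promoter of Nfatc1 is not reported here. Each run is the 250 bases before the annotated start in GRCm38.p6, the assembly of mm10, read 5′ to 3′ on the gene's strand. Lhx2 and Tbx1 had 2 entries each, of which the one nearest the start of the gene in GENCODE was used. Motifs in the other entry of these genes are not described here. The windows are chr1:135105277-135105526 (minus) for Lgr6, chr6:94700146-94700395 (minus) for Lrig1, chr1:194938571-194938820 (plus) for Cd34, chr2:38339031-38339280 (plus) for Lhx2 and chr16:18590672-18590921 (minus) for Tbx1. Capitals mark a GLI core motif, CCACCCA or its reverse complement TGGGTGG.
Lgr6: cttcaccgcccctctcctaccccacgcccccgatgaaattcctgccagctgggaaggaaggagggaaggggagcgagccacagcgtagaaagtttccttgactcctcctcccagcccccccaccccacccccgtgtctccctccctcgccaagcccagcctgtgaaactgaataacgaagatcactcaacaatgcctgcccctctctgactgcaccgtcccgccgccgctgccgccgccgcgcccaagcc
Lrig1: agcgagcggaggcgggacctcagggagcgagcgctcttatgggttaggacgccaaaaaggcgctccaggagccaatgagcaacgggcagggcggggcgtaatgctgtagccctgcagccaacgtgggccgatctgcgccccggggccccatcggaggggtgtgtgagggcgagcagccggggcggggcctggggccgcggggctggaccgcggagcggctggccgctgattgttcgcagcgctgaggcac
Cd34: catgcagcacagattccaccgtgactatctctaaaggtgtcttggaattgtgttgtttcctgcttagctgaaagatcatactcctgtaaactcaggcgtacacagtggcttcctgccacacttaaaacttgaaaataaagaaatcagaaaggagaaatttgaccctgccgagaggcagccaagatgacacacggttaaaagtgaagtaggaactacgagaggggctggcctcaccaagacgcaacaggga
Lhx2: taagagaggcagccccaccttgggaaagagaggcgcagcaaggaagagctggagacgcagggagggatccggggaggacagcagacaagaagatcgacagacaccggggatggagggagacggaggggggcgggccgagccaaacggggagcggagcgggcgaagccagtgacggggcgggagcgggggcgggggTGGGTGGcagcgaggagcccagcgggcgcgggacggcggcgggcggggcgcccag
Tbx1: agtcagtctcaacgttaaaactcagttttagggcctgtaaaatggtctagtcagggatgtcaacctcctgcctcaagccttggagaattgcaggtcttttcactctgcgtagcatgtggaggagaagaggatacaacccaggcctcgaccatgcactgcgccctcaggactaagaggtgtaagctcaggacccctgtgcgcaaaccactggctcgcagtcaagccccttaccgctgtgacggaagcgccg
The GLI core motif occurred in the Lhx2 window alone, starting 55 bases before the start, and 8.11% of 32851 promoter windows of this length hold it on either strand. The TCF/LEF motif of the Wnt pathway, ATCAAAG or CTTTGAT, was in none of these 5 windows and in 3.21% of all windows. The promoters differ in base composition. Those of Lhx2, Lrig1 and Lgr6 were 72.8%, 71.6% and 65.2% G or C, with 25, 26 and 16 CpG pairs, against medians of 52.4% and 6 over all windows. Those of Cd34 and Tbx1 were 46.4% and 54.4% G or C, with 6 and 10 CpG pairs.

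Knockout keratinocytes held less RNA of Lgr5, Lgr6 and Lrig1, the 3 cell surface receptors or receptor regulators of the set. The edgeR quasi-likelihood test, adjusted over all tested genes with a threshold of 0.05, called 8.87% of those genes. It called these 3 of 10 members lower, against 4.54% of all tested genes, and 0 higher, against 4.33%. DESeq2 and limma-voom also called 0 members higher, against 1093 and 563 of the 13016 tested genes. The 7 members with an unadjusted p under 0.05 in edgeR were all lower in the knockout. The last of these 7, Tbx1 (edgeR unadjusted p = 0.03003), ranked 2735 by p among the 13016 tested genes. An unadjusted p under 0.05 was thus common over all genes, which also limits such counts in the lists below. The groups did not overlap for the same 3 members, all lower in the knockout, against 9% of tested genes that did so in this direction and 7.95% in the other. Of the 10, 9 had a log2 fold change below 0, as did 53.1% of tested genes, and their median was -0.72 against -0.02 over all tested genes. In RNA from a mixture of cells, fewer cells of a type and less RNA per cell cannot be told apart.

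**Figure D1:**
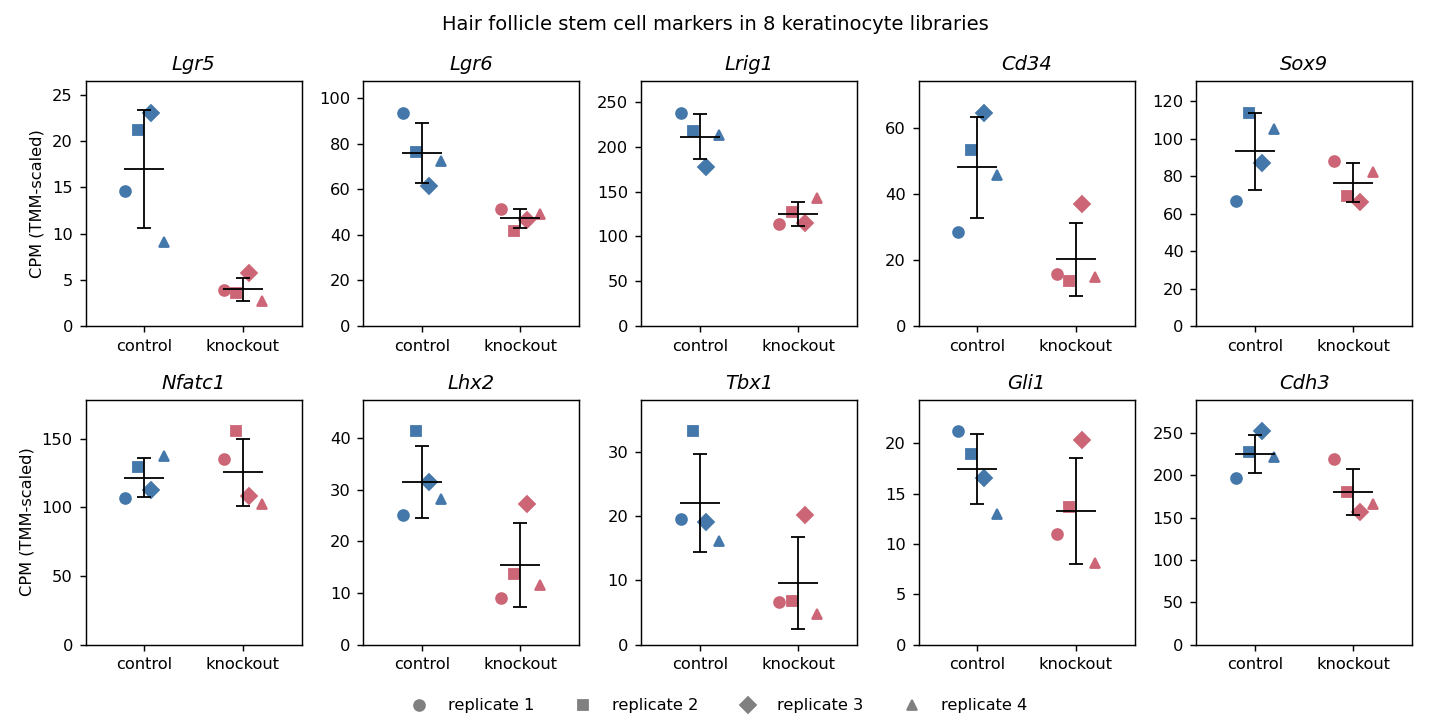
CPM of the 10 follicle stem cell markers in each of 8 libraries, 1 panel per gene with its own linear axis from 0; symbols are replicates, the wide bar is the mean of 4 and the error bar the SD. Lgr5, Lgr6 and Lrig1 separate the groups, and the diamond of knockout replicate 3 lies with the controls for Cd34, Lhx2 and Tbx1.

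Lgr5 (chromosome 10, 115450311 to 115587780, minus strand, GRCm38) encodes an R-spondin receptor of the lower bulge and hair germ. Control replicates 1 to 4 held 14.6, 21.15, 23.0 and 9.11 CPM and knockout replicates 1 to 4 held 3.87, 3.60, 5.72 and 2.75 CPM. Even the lowest control lay above the highest knockout, although controls differed among themselves more than knockouts did. The mean was 17.0 ± 6.37 CPM in control and 3.98 ± 1.25 CPM in knockout libraries (SD, n = 4 per group), 4.26-fold lower (log2 -2.09, SE 0.32, edgeR adjusted p = 0.006426). Counts behind these values ran from 312 to 748 in controls and from 87 to 177 in knockouts. In the 5 libraries without Y-linked transcripts the log2 fold change was -1.56 (edgeR adjusted p = 0.04417).

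Lgr6 (chromosome 1, 134983301 to 135105276, minus strand), the related receptor of the isthmus, fell by less. Controls held 93.6, 76.5, 61.55 and 72.7 CPM, and knockouts held 51.4, 41.8, 46.4 and 49.4 CPM. Knockouts kept within a narrow band below every control. The means were 76.1 ± 13.3 and 47.3 ± 4.19 CPM (SD, n = 4 per group), on the log2 scale -0.69 (SE 0.13, edgeR adjusted p = 0.01019), which leaves 62.1% of the control level.

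Lrig1 (chromosome 6, 94604529 to 94700158, minus strand) encodes a membrane protein that restrains EGF receptor signalling and marks the junctional zone. Its control libraries were at 237.8, 217, 177 and 213 CPM, and its knockout libraries at 114, 127, 115.5 and 143 CPM. The groups were apart by more than the range of the knockouts. The level went from 211 ± 25.3 to 125 ± 13.3 CPM (SD, n = 4 per group), or 59.1% of control (log2 -0.76, SE 0.11, edgeR adjusted p = 0.005331). An exon of Slc25a26 overlaps an exon of Lrig1 on the opposite strand, and whether counting used strand is not given in the sources used here. Slc25a26 was at 6.63 ± 0.592 CPM in control and 5.42 ± 0.777 CPM in knockout libraries (SD, n = 4 per group).

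Receptors and inhibitors tied to these 3 proteins were read from 2 further lists. In the R-spondin and LGR list, Lgr4, the third receptor of the LGR5 group and the most widely transcribed, was the 1 gene of 11 tested that passed. It went from 66.8, 57.1, 66.3 and 60.35 CPM in controls to 44.7, 43.15, 42.4 and 44.2 CPM in knockouts (log2 -0.52, SE 0.08, edgeR adjusted p = 0.005836), and the call held in 8 of 8 fits that left out 1 library. All 3 R-spondin receptors of this family were thus called lower in the knockout. Without control replicate 3, 2 genes of the list were called. Its median log2 fold change was -0.31, and 4 of the 15 genes listed, Rspo1, Rspo2, Rspo4 and Sp5, were too low to test. Among LRIG relatives and growth factor receptors, 0 of 6 tested genes passed with edgeR, and the median was 0.15. An unadjusted p under 0.05 was found for 2 of the 6, and for at least 2735 of all 13016 tested genes. DESeq2 called 1 of the 6, against 2010 of the 13016, and limma-voom called 0 of the 6. Erbb2 was at 198 ± 15.5 CPM in control and 209.5 ± 8.04 CPM in knockout libraries, and Erbb3 at 153 ± 21.1 and 235 ± 66.6 CPM (SD, n = 4 per group).

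Cd34, Lhx2 and Tbx1, all genes of the bulge, shared a pattern of another kind: 3 knockout libraries lay below every control, and knockout replicate 3 lay inside the control range. Such a pattern was found in 3 of 10 members and in 3.58% of tested genes. It was chosen for description after the values were seen. With all 8 libraries and genotype as the only term, none of the 3 passed the edgeR test. DESeq2 called Cd34 and Lhx2 lower, as did edgeR with the replicate number as a block, and limma-voom called all 3. Since the pattern was picked by that library, a call made without it follows in part from the choice.

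Cd34 (chromosome 1, 194938819 to 194961279, plus strand) was at 28.5, 53.5, 64.7 and 46.0 CPM in control replicates 1 to 4. Knockout replicates 1, 2 and 4 held 15.8, 13.7 and 14.9 CPM, and knockout replicate 3 held 36.9 CPM. The last value was above that of control replicate 1. The means were 48.2 ± 15.2 and 20.3 ± 11.1 CPM (SD, n = 4 per group; log2 -1.24, SE 0.37, edgeR adjusted p = 0.07371), and without knockout replicate 3 the log2 fold change was -1.70 (edgeR adjusted p = 0.00848). A long noncoding RNA on the opposite strand, Gm16897, overlaps an exon of Cd34 and was called lower at a much smaller level, 1.20 ± 0.375 against 0.204 ± 0.19 CPM (SD, n = 4 per group, edgeR adjusted p = 0.01353).

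Markers of other CD34-positive cells were far below those of keratinocytes, but not in every library below Cd34 itself. Summed over 7 endothelial genes the level was 1.02 to 3.20 CPM in controls and 0.537 to 1.42 CPM in knockouts, the highest knockout being replicate 3. The endothelial genes Cdh5, Kdr and Emcn had at most 14, 5 and 1 counts in a library, and Pecam1 and Egfl7 at most 43 and 36. All these maxima were in control replicate 3, against 2100 counts of Cd34 there. Pecam1 was at 0.914 ± 0.36 CPM in control and 0.46 ± 0.278 CPM in knockout libraries (SD, n = 4 per group, edgeR adjusted p = 0.2071). The sum of 8 fibroblast genes in knockout replicate 1, 24.1 CPM, was above the 15.8 CPM of Cd34 there. Over these 8 genes the sum was 6.00 to 12.2 CPM in controls and 3.50 to 24.1 CPM in knockouts, with 4.82 CPM in replicate 3. Of these 8, Dcn was called, higher in the knockout (0.663 ± 0.229 against 1.92 ± 0.615 CPM; SD, n = 4 per group, edgeR adjusted p = 0.02006). The mast cell genes Cpa3 and Tpsb2 had 0 counts in all libraries. Kit, also on the mast cell list, fell from 0.732 ± 0.229 to 0.13 ± 0.0669 CPM (SD, n = 4 per group, edgeR adjusted p = 0.008833). The 5 mast cell genes summed to 0.585 to 1.02 CPM per control library, nearly all of it Kit, and to 0.164 to 0.259 CPM per knockout library. Cma1 and Mcpt4, the remaining genes of that list, were too low to test, with at most 3 counts in a library. Their means did not fall. Cma1 had a mean of 0.0299 CPM for control against 0.0672 CPM for knockout, and Mcpt4 of 0.0077 against 0.0179 CPM. The lower sum was thus a fall of Kit alone. The part of these cells in the Cd34 level was not tested.

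Lhx2 (chromosome 2, 38339281 to 38369733, plus strand), a LIM homeodomain factor of bulge cells, was at 25.2, 41.3, 31.5 and 28.2 CPM in controls. Its knockouts held 9.06, 13.6 and 11.6 CPM in replicates 1, 2 and 4, and 27.3 CPM in replicate 3. Replicate 3 thus stood at 86.6% of the control mean and the other 3 knockouts at 28.7 to 43.05%. The log2 fold change was -1.03 (SE 0.33, edgeR adjusted p = 0.08337) with all libraries and -1.46 (edgeR adjusted p = 0.005668) without knockout replicate 3.

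Tbx1 (chromosome 16, 18580979 to 18590671, minus strand), a T-box factor needed for bulge cells to renew themselves, was at 19.6, 33.2, 19.1 and 16.2 CPM in controls. Knockout replicates 1, 2 and 4 held 6.62, 6.84 and 4.70 CPM, and replicate 3 held 20.2 CPM, above all controls but replicate 2. That is 91.9% of the control mean, against 21.35 to 31.1% in the other 3 knockouts. The log2 fold change went from -1.20 (SE 0.46, edgeR adjusted p = 0.1429) to -1.86 (edgeR adjusted p = 0.0073) without knockout replicate 3.

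Hmgb1 was at 126 CPM in knockout replicate 3 and at 113 to 119 CPM in the other knockouts. Lgr5, Lgr6 and Lrig1 were low in that library too, at 33.7%, 61.0% and 54.7% of the control mean, and their calls held without it. Leukocyte markers summed to 39.3 CPM there, the highest knockout value, within the 16.4 to 49.95 CPM of controls, and most of those counts were Cd74. Leaving out libraries by their Y-linked transcripts instead gave log2 fold changes of -0.77, -0.61 and -0.76 for Cd34, Lhx2 and Tbx1 (edgeR adjusted p = 0.5974, 0.5212 and 0.684) in 2 controls and 3 knockouts, replicate 3 among them.

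**Figure D2:**
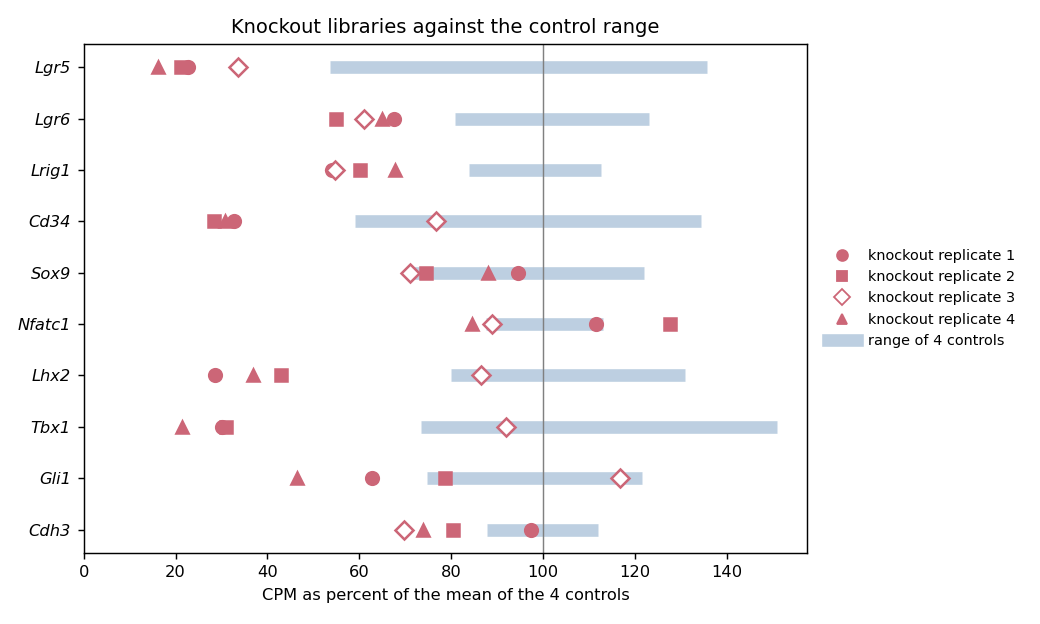
CPM of each knockout library as a percent of the mean of the 4 controls, for the 10 markers; blue bars span the 4 controls and open diamonds are knockout replicate 3. All knockouts lie left of the bar for Lgr5, Lgr6 and Lrig1, and for Cd34, Lhx2 and Tbx1 the diamond alone lies on it, at 76.7%, 86.6% and 91.9%.

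Gli1 (chromosome 10, 127329882 to 127341974, minus strand) also had its highest knockout value in replicate 3. Controls held 21.2, 18.95, 16.6 and 13.03 CPM, and knockouts 10.95, 13.7, 20.4 and 8.08 CPM. Both replicates 2 and 3 of the knockout fell within the control range. The log2 fold change was -0.39 (SE 0.26, edgeR adjusted p = 0.3809), and -0.67 (edgeR adjusted p = 0.07765) without replicate 3. Exons of Arhgap9 and Gm47200 overlap Gli1 on the opposite strand, and Arhgap9 was at 0.847 ± 0.125 CPM in control and 0.668 ± 0.202 CPM in knockout libraries (SD, n = 4 per group).

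Other genes of the Hedgehog pathway were lower in part. Of 11 tested, 3 were called lower and 8 missed the threshold, and the list had a median log2 fold change of -0.45. Hhip, a secreted inhibitor that binds Hedgehog ligands and is itself a target, went from 1.59 ± 0.318 to 0.422 ± 0.162 CPM (SD, n = 4 per group, edgeR adjusted p = 0.006804). The coreceptors Boc (89.3 ± 7.18 to 64.0 ± 4.05 CPM, edgeR adjusted p = 0.009991) and Gas1 (97.6 ± 24.9 to 44.5 ± 13.8 CPM, edgeR adjusted p = 0.02349) fell too. Hhip and Boc kept the call in 8 of 8 fits that left out 1 library, and Gas1 lost it without knockout replicate 2 (edgeR adjusted p = 0.07335). The receptor Ptch1, a standard target of the pathway, was at 21.97, 21.9, 22.9 and 22.2 CPM in control libraries and at 18.15, 21.8, 21.9 and 21.0 CPM in knockout libraries, and did not pass (edgeR adjusted p = 0.5493). The ligands Shh, Ihh and Dhh were too low to test. In the 5 libraries without Y-linked transcripts edgeR called 0 of the 11, and 383 of 13256 tested genes. With so few calls over all genes, 0 of 11 does not set this list apart. Of the 11, 5 had an unadjusted p under 0.05 in that fit.

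Sox9, Nfatc1 and Cdh3 had the smallest log2 fold changes of the 10, of either sign. Sox9 (chromosome 11, 112782224 to 112787760, plus strand), a factor that founds and maintains the bulge, was at 67.0, 113.7, 87.3 and 104.9 CPM in control libraries and at 88.1, 69.5, 66.3 and 82.05 CPM in knockout libraries. All knockouts but replicate 3 lay within the control range (log2 -0.29, SE 0.16, edgeR adjusted p = 0.294). Cdh3 (chromosome 8, 106510891 to 106557297, plus strand), the classical cadherin of basal and germ cells, held 197, 228, 252 and 221 CPM in control libraries and 218.8, 180.4, 157 and 166 CPM in knockout libraries. Knockout replicate 1 alone lay within the control range (log2 -0.32, SE 0.12, edgeR adjusted p = 0.1234). Scaled by library totals alone, which put the median of all tested genes at -0.13, Cdh3 was called lower (log2 -0.43, edgeR adjusted p = 0.02514).

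Nfatc1 encodes a calcineurin-dependent factor that holds bulge cells in quiescence. Its libraries were at 106.5, 129, 113 and 137 CPM in control libraries and at 135.5, 155, 108 and 103 CPM in knockout libraries, which spread to both sides of the controls. Its log2 fold change, 0.05 (SE 0.14, edgeR adjusted p = 0.8705), had no stable sign, at -0.01 with upper-quartile scaling and -0.07 with library totals only. Of 9 tested genes of the NFAT and calcineurin list, 1 passed, Nfatc4, a related factor at a low level (1.20 ± 0.529 to 0.308 ± 0.0803 CPM; SD, n = 4 per group, edgeR adjusted p = 0.01425), and the median was 0.01 (-0.10 with library totals only). Nfatc4 lost its call in the 5 libraries without Y-linked transcripts (edgeR adjusted p = 0.1265) and was too low for the filter of 1 CPM in 4 libraries.

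Of 6 tested genes of the cadherins and catenins that P-cadherin belongs to or binds, 3 were called higher, 0 lower and 3 did not pass (Ctnna1, Ctnnb1 and Cdh4), and the list had a median log2 fold change of 0.41. Jup, the plakoglobin that links cadherins to keratin and actin, rose from 1731 ± 189 to 2704 ± 250 CPM (SD, n = 4 per group, edgeR adjusted p = 0.009114) and kept its call whichever library was left out. The p120 catenin Ctnnd1 (484 ± 3.33 to 671 ± 98.2 CPM, edgeR adjusted p = 0.03087) and E-cadherin, Cdh1 (1097 ± 107 to 1746 ± 449 CPM, edgeR adjusted p = 0.03713), also rose, but kept the call in 1 and 2 of 8 such fits. In the 5 libraries without Y-linked transcripts edgeR called 0 of the 6, and 383 of 13256 tested genes, so this count does not set the list apart. Of the 6, 3 had an unadjusted p under 0.05 in that fit.

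**Figure D3:**
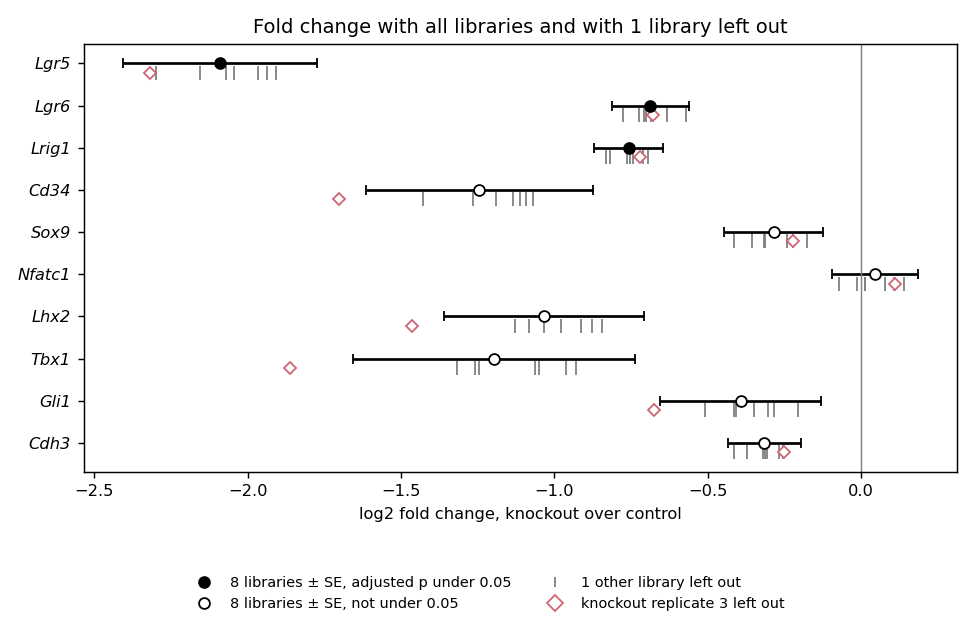
Log2 fold change of each marker, knockout over control, with its SE (circles, filled where the adjusted p is under 0.05) and below it the values with 1 library left out. Lgr5, Lgr6 and Lrig1 stay below 0 and called throughout, and leaving out knockout replicate 3 (diamonds) moves Cd34, Lhx2 and Tbx1 to -1.70, -1.46 and -1.86.

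Other genes of the follicle compartments were read from lists outside the 10. Of 16 tested bulge genes, 4 were called lower, 0 higher and 12 did not pass, and the median log2 fold change was -0.45. The bulge keratin Krt15, the most abundant of the 16, differed little. It was at 2682 ± 762 CPM in control and 2546 ± 128 CPM in knockout libraries (SD, n = 4 per group, log2 -0.08, edgeR adjusted p = 0.8187). Tcf7l2 (log2 0.04) and Tnc (log2 -0.16) did not pass either (edgeR adjusted p = 0.8374 and 0.7044). Cd200, a surface glycoprotein of bulge cells, went from 16.1, 20.5, 22.8 and 17.0 CPM in controls to 10.2, 9.99, 9.99 and 7.92 CPM in knockouts (2.01-fold lower, edgeR adjusted p = 0.004601). Fgf18, a growth factor that keeps the bulge at rest, fell from 1.42 ± 0.222 to 0.485 ± 0.189 CPM, and the transcription factors Foxc1 (31.2 ± 4.98 to 19.5 ± 2.65 CPM) and Runx1 (25.8 ± 1.99 to 18.1 ± 2.31 CPM) fell as well (SD, n = 4 per group, edgeR adjusted p = 0.01501, 0.01624 and 0.02369). Cd200 and Fgf18 kept the call in 8 of 8 fits that left out 1 library. Foxc1 lost it without control replicate 2 or knockout replicate 2, and Runx1 without control replicates 2 or 4 or knockout replicates 2 or 4 (largest edgeR adjusted p = 0.05189 and 0.07328). The bulge count was 2 without control replicate 2 or without knockout replicate 2 (Cd200 and Fgf18), 6 without knockout replicate 3, and again 2 when only libraries lacking Y-linked transcripts were fitted (Cd200 and Foxc1, with Fgf18 at an edgeR adjusted p of 0.1185).

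Knockout replicate 3 stood in the control range, with the other knockouts below it, for 3 of these 16 bulge genes as well: Dkk3, S100a4 and Tcf7l1. S100a4, a calcium-binding protein, was at 12.5, 27.35, 30.9 and 15.9 CPM in controls, at 6.62, 6.515 and 6.47 CPM in knockout replicates 1, 2 and 4, and at 16.2 CPM in replicate 3. Dkk3, of the Dickkopf family, was at 26.4, 44.4, 54.2 and 40.1 CPM in controls. Those 3 knockouts held 21.5, 19.8 and 24.6 CPM of it, and replicate 3 held 39.15 CPM. Without that library, whose value picked these genes, the edgeR adjusted p was 0.01582 for S100a4, 0.03782 for Dkk3 and 0.2089 for Tcf7l1. Of the 4 called bulge genes, replicate 3 lay within the range of the other knockouts for Cd200, Foxc1 and Runx1, and was the highest knockout for Fgf18, at 0.711 CPM against 0.262 to 0.537 CPM. It was the highest knockout for 9 of the 16 bulge genes, against 29.5% of tested genes.

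Genes of the isthmus, junctional zone and infundibulum, the compartments of Lgr6 and Lrig1, had a median log2 fold change of 0.06. EdgeR called 0 of 9, with 3 at an unadjusted p under 0.05, where at least 2735 of 13016 tested genes lay. Limma-voom called 0 with a median of -0.05. DESeq2 called 2 higher and 1 lower, against 1093 higher and 917 lower of the 13016. Krt17 was at 1027 ± 194 CPM in control and 1380 ± 180 CPM in knockout libraries, and the infundibular keratin Krt79 at 602 ± 46.5 and 647 ± 120 CPM (SD, n = 4 per group). In the hair germ, matrix and root sheath list, 1 of 14 tested genes was lower and 1 higher, with a median of -0.40. The Wnt and BMP antagonist Sostdc1 fell from 110 ± 27.3 to 65.25 ± 10.7 CPM, and Gata3, a factor of the inner root sheath, rose from 272 ± 78.2 to 513 ± 117 CPM (SD, n = 4 per group, edgeR adjusted p = 0.02843 and 0.03882). Leaving out 1 library at a time, these calls held in 3 and 4 of 8 fits. Of 7 tested sebaceous gland genes edgeR called 0, with 0 at an unadjusted p under 0.05 and a median of -0.11, and DESeq2 and limma-voom called 0. Scd1 was at 287 ± 100.5 and 286 ± 34.45 CPM and Dgat2 at 30.2 ± 12.2 and 47.8 ± 18.4 CPM (SD, n = 4 per group).

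**Figure D4:**
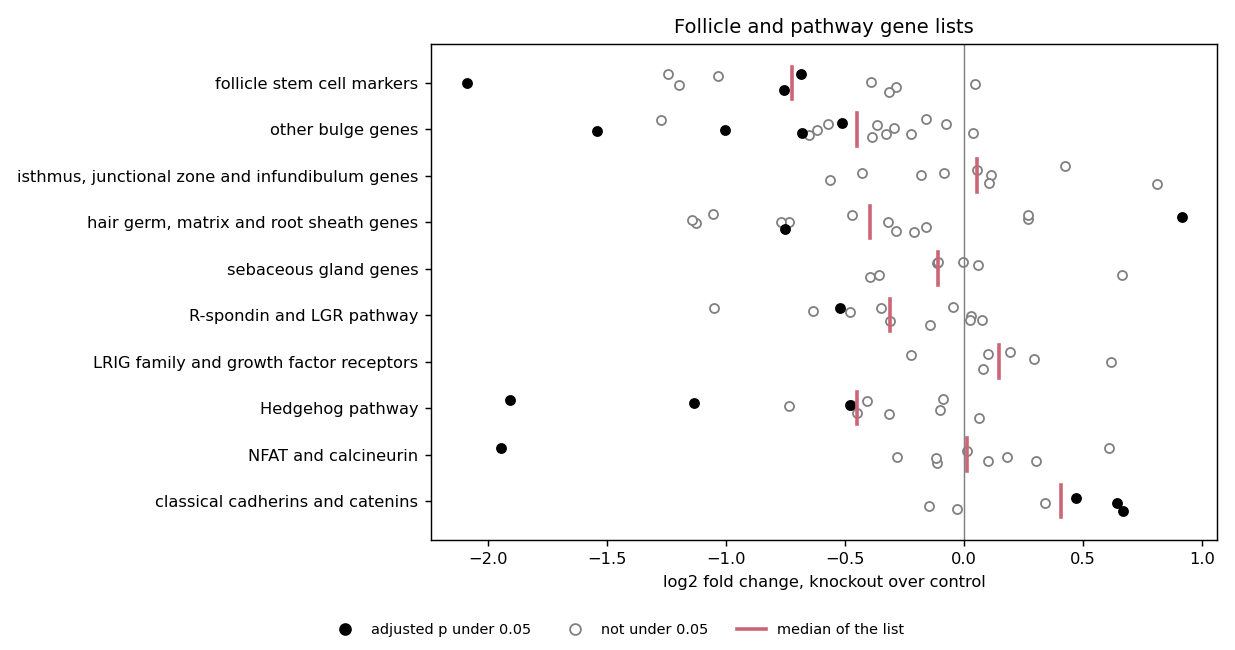
Log2 fold change of every tested gene of the follicle and pathway lists, 1 row per list; filled points have an adjusted p under 0.05 and the red line is the median. Medians lie below 0 for stem cell markers (-0.72), other bulge (-0.45), Hedgehog (-0.45), hair germ (-0.40), R-spondin (-0.31) and sebaceous gland genes (-0.11). They lie above 0 for cadherins and catenins (0.41), LRIG and growth factor receptors (0.15), isthmus genes (0.06) and NFAT genes (0.01).

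Between genes, levels were compared as CPM per kilobase of merged exon. In controls the order was Cdh3 (51.2 ± 5.11), Lrig1 (37.8 ± 4.52), Sox9 (22.5 ± 4.999), Nfatc1 (16.3 ± 1.91), Lgr6 (11.1 ± 1.94), Lhx2 (7.18 ± 1.59), Cd34 (6.61 ± 2.09), Tbx1 (6.26 ± 2.17), Gli1 (3.49 ± 0.699) and Lgr5 (1.66 ± 0.62; SD, n = 4 per group). Ranges of the 4 controls overlapped between Sox9 and Nfatc1, between Lgr6 and Lhx2, between Lhx2 and Cd34 and between Cd34 and Tbx1. Within each control library, however, Sox9 was above Nfatc1 and Lgr6 above Lhx2. The order of Lhx2 and Cd34, and that of Cd34 and Tbx1, changed between control libraries. Lgr5 was the lowest of the 10 in both genotypes, and fell to 0.388 ± 0.122 CPM per kilobase in knockouts. Cdh3 remained the highest in knockouts, at 41.2 ± 6.24 CPM per kilobase.

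Among 11047 other genes with a mean of at least 2 CPM, those nearest in pattern to each called member were found by the root mean square difference of centred log2 CPM over the 8 libraries. Nearest to Lgr5 were Ltbp2, Aspn and Col5a2, at differences of 0.31, 0.32 and 0.38. Aspn went from 7.60 ± 0.933 to 1.98 ± 0.604 CPM (SD, n = 4 per group). The patterns of Usp11, Ggnbp1 and Pbxip1 came closest to Lgr6 (0.08, 0.09 and 0.11), and Bach2, Itpr1 and Usp11 to Lrig1 (0.09, 0.10 and 0.11). Usp11, at 4.21 ± 0.591 CPM in control and 2.67 ± 0.134 CPM in knockout libraries (SD, n = 4 per group), was common to both sets.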

How the data were processed

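RNA of 4 control and 4 knockout keratinocyte libraries was analysed as the whole-number counts per gene symbol that the authors deposited, without normalization. The submitters' processing notes name TopHat2 2.1.0, SAMtools 0.1.18, Trimmomatic 0.35, FastQC 0.11.4 and mm10, and how reads were counted is not given in the sources used here. Ambiguous reads (0.918 to 1.11%) and reads outside genes (15.7 to 21.75%) were left out. Groups and replicate numbers come from the sample titles; the file of knockout replicate 4 carries the number 5 in its name.

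Genes were filtered with filterByExpr, scaled by TMM and tested with edgeR 4.0.16 (quasi-likelihood, robust, genotype as the only term; R 4.3.3), with Benjamini-Hochberg adjustment over 13016 genes. SEs were derived from the F statistic, and CPM use TMM-scaled totals. Members, lists, tests and alternatives were chosen with earlier results of these data known. All members were named, with up to 4 called genes per list by smallest p or, where none passed, the 2 most abundant. The 3 genes nearest in pattern to each called member were named too. Genes given for knockout replicate 3, overlapping genes, single markers and the bulge genes Krt15, Tcf7l2 and Tnc were named after their values were seen. Markers of 7 cell types were summed; melanocyte genes gave 5.87 to 7.53 CPM and Merkel cell genes 0.251 to 1.94 CPM. Exon lengths and overlaps come from GENCODE M21 and promoters from RefSeq, both on GRCm38. Alternatives were DESeq2 1.42.0, limma-voom (limma 3.58.1) with and without quality weights, 3 other scalings, 2 other filters, the replicate number as a block, a term for Y-linked transcripts (over 1000 counts), the libraries without them, and each library left out. The tests were tried on simulated counts.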

Additional observations from a re-analysis of the deposited data

Results flagged for a closer look

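Within a group of 4 libraries, 2 member values stood apart from the other 3 by more than 0.829 of the group's range, out of 20 groups examined; chance gives about 1 in 20. Both were in knockout replicate 3. Cd34 was at 36.92 CPM there, with the next knockout at 15.79 CPM (0.91 of the range). Tbx1 was at 20.24 CPM, with the next knockout at 6.842 CPM (0.862 of the range).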

How the results depend on the processing

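Lgr5, Lgr6 and Lrig1 kept their direction and their call in all 19 alternatives, with log2 fold changes of -2.32 to -1.56, -0.86 to -0.57 and -0.86 to -0.70 and largest adjusted p of 0.04417, 0.0375 and 0.0202. Members called lower, 3 with all libraries, were 5 with DESeq2, 6 with limma-voom and 7 with quality weights; they ranged from 3 to 6 with 1 library left out, 6 being without knockout replicate 3. DESeq2 and limma-voom added Cd34 (adjusted p = 0.001839 and 0.03649) and Lhx2 (0.006474 and 0.03605), limma-voom also Tbx1 (0.0496), and quality weights added these 3 and Cdh3 (0.04952). Cd34, Lhx2, Tbx1 and Cdh3 ranged up to an adjusted p of 0.5974, 0.5212, 0.684 and 0.251. Nfatc1 changed sign with upper-quartile scaling (log2 -0.013), library totals only (-0.068), without control replicate 1 (-0.013) and without knockout replicate 2 (-0.073), within -0.073 to 0.139 with 1 library left out. Over all genes 1154 were called, against 2010 with DESeq2, 1912 with quality weights, 383 in the libraries without Y-linked transcripts and 462 to 1247 with 1 library left out (550 and 769 without control replicates 2 and 4, 718 and 462 without knockout replicates 1 and 2). Higher and lower calls were 563 and 591, and 370 and 997 with library totals only, or 460 and 723 with upper-quartile scaling. With the replicate number as a block, 5 members and 723 genes were called, Cd34 and Lhx2 being added (edgeR adjusted p = 0.02344 and 0.04197). Over all tested genes, same-numbered libraries did not deviate together (correlations of -0.228 to -0.053). Such correlations cannot settle whether the numbers pair libraries, which the labels do not state. The cause of these changes was not tested. Lgr5 had the lowest counts of the members, 87 to 177 in knockouts.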
